A study of Mus musculus with 16 samples.

Results

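Btnl1, Btnl2, Btnl4 and Btnl6 are 4 mouse genes of the butyrophilin-like family that are known from the epithelium of the gut. They were taken by gene symbol, and all 4 were found among the 24420 features of each of 2 tables of normalised read counts. The tables hold 16 libraries in 4 groups, all of strain C57B6 mice. The first table holds 5 libraries of isolated primary enterocytes from Mfge8 null mice and 4 from WT mice. The second holds 3 libraries of small intestinal RNA from Cd36 null mice and 4 from WT mice. CD36 is a fatty acid receptor of the cell membrane, and MFGE8 is a glycoprotein that cells secrete and that integrins recognise. The labels do not say how either allele was made, which segment of intestine was taken, or whether each library stands for an animal of its own. A p-value here therefore rests on the spread among the libraries alone, and part of that spread may be technical.

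Butyrophilin-like proteins are membrane proteins of the immunoglobulin superfamily, related to the B7 family of T cell co-receptor ligands. In the mouse small intestine, differentiated villus enterocytes carry Btnl1 and Btnl6 together on their surface as a heterodimer, and this pair acts on the intraepithelial lymphocytes (IELs) whose gamma delta T cell receptor uses Vgamma7. Btnl1 is needed for the maturation and maintenance of those cells. Btnl4 is a close relative of Btnl6 that can also pair with Btnl1, while Btnl2 has been described as an inhibitor of T cell activation.

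The 4 genes lie within 164 kb of chromosome 17 on the GRCm38.p6 (mm10) assembly, next to the genes of MHC class II. In the RefSeq annotation Btnl2 runs from 34354789 to 34369492 on the plus strand. Btnl1 starts 7.63 kb further on and runs from 34377123 to 34386162, also on the plus strand. Btnl4 (34468410 to 34477428) and Btnl6 (34507870 to 34518776) are on the minus strand, 82.2 kb beyond Btnl1 and 30.4 kb apart. The pseudogene Btnl5-ps (34487405 to 34497429) lies between Btnl4 and Btnl6. H2-Eb1, a beta chain of the class II molecule, ends 38.1 kb before the start of Btnl2.

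The sequences around the start of each gene are shown because they divide the members in the same way as the transcripts do, into 2 dissimilar genes and 1 near-identical pair. Each run is the entry for that gene in a table of promoters made from RefSeq (GRCm38.p6), with 250 bases before and 50 after the start that the table uses, 5′ to 3′ on the strand of the gene. That start is not the outermost end of the RefSeq gene. It lies 9 bases inside the gene for Btnl1 (34377132), 33 bases inside for Btnl2 (34354822), 1491 inside for Btnl4 (34475937) and 1424 inside for Btnl6 (34517352), and coincides with the start of a GENCODE M21 transcript model in each case. For Btnl4 and Btnl6 it is the start codon, so their last 50 bases are coding and the rest lies within the RefSeq gene; whether transcription starts there was not tested. The runs are at chr17:34376882-34377181 for Btnl1, chr17:34354572-34354871 for Btnl2, chr17:34475888-34476187 for Btnl4 and chr17:34517303-34517602 for Btnl6. Capitals mark matches to the searched motifs.
Btnl1: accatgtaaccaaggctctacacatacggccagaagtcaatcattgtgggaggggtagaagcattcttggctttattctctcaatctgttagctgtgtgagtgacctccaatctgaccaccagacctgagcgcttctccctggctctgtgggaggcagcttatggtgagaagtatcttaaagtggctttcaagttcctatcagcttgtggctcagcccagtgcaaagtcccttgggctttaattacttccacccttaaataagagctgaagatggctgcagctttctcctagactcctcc
Btnl2: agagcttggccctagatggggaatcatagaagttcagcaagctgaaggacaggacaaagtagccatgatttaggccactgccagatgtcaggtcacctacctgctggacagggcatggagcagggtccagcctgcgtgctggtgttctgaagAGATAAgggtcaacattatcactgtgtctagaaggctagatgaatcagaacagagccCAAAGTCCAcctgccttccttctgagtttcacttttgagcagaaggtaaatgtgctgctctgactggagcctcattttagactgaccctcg
Btnl4: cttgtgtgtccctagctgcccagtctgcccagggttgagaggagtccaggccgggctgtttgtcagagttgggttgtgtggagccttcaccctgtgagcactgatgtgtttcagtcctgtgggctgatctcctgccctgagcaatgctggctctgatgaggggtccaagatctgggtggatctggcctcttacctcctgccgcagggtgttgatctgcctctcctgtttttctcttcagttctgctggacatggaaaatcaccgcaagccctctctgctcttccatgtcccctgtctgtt
Btnl6: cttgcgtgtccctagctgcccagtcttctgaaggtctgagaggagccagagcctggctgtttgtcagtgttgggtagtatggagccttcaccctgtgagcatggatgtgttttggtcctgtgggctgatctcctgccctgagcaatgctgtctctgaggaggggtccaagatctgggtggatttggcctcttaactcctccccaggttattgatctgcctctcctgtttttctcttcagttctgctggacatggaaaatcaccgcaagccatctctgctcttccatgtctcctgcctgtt

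The Btnl4 and Btnl6 runs, around their start codons, were 91.1% identical over 302 aligned columns, while no other pair of runs aligned over more than 49 columns. Both strands were searched for CAAAGTCCA, the core bound by HNF4, a nuclear receptor of enterocytes, and for its looser form CAAAGNNCA, which contains the first. They were also searched for the letters TTTATNG, bound by CDX homeobox factors. Last, the letters AGATAA, bound by GATA factors, were sought in the same way on both strands. Btnl2 held the HNF4 core at position -41 and the GATA letters at position -98 relative to the start the table uses (34354822), both on the strand of the gene. The other 3 runs held no match. Of 27025 runs of the same length in that table, 1 per gene, 0.477% held the HNF4 core, 6.37% its looser form, 11.3% the CDX letters and 11.4% the GATA letters.

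The transcripts divided the genes likewise. In the GENCODE M21 models the Btnl4 and Btnl6 transcripts were 89.2% identical over 1630 aligned bases, with a longest exact match of 69 bases. For Btnl6, M21 holds a coding model of 1620 bases and a model of 1751 bases typed as an unprocessed pseudogene. Btnl5-ps was 88.8% identical to Btnl4 over 1750 bases, with a longest exact match of 106 bases, and 89.7% identical to Btnl6 over 1607. Btnl1 and Btnl2 reached at most 61.8% against any other of these transcripts, with no exact match over 19 bases. Reads were 100 bases long, so single reads of Btnl4, Btnl6 and Btnl5-ps can resemble more than 1 of these genes, and how the authors' counting divided them is not given in the sources used here. The models also differ at the 3′ end, where tags arise. The M21 coding models have 252 bases of 3′ UTR after the stop codon in Btnl1, up to 767 in Btnl2 and 0 in Btnl4 and Btnl6. The RefSeq genes extend 632 bases beyond the stop codon in Btnl4 and 65 in Btnl6. On the minus strand, noncoding M21 models reach further, to 34466562 for Btnl4 and 34507804 for Btnl6, against RefSeq ends at 34468410 and 34507870. The annotation the authors counted on is not given in the sources used here, and its part in the low values of Btnl4 and Btnl6 was not tested.

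Depth was 1618369 to 2459812 reads in the enterocyte libraries and 850297 to 1000694 in the intestine libraries. Enterocyte libraries of 1 genotype differed far beyond what counting allows, since chi-square divided by its degrees of freedom was 6.26 to 20.2 over 16 pairs. In intestine that quotient was 0.987 to 1.117 over 9 pairs, of which 5 had p under 0.05. Intestine libraries of 1 genotype thus differed by little more than sampling noise, each genotype was taken as 1 sample, and no test of genotype was made there. As a check of the labels, Mfge8 had 3.92, 2.19, 1.998, 7.50 and 1.64 normalised reads in null enterocytes, against 23.4, 11.4, 16.5 and 7.94 in WT enterocytes. Cd36 had 15.38, 15.97 and 6.48 in null intestine, against 114.3, 115.6, 111.2 and 114.9 in WT intestine. The deleted part of either gene is not given in the labels, and tags that remain at the 3′ end do not show that functional transcript did. A normalised read count is the number of reads divided by 1 size factor per library. Tags arise at the 3′ end of a transcript, so values are not divided by gene length. Whether several reads of 1 molecule were collapsed is not given in the sources used here.

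Btnl1 was by far the most abundant of the 4 genes in every library. No difference in it was detected in Mfge8 null enterocytes, while the Cd36 genotypes, with 1 sample each, were not tested. It had 1211, 1689, 1372, 1359 and 1485 normalised reads in Mfge8 null enterocytes, against 1534, 1300, 1773 and 885.5 in WT enterocytes. The 5 null libraries all lay inside the range of the WT libraries, whose replicate 4 was the lowest of all 9. Means were 1423 ± 178 (SD, n = 5) and 1373 ± 378 (SD, n = 4). On the log2 scale this was a change of 0.09 (SE 0.19), or a fold of 1.06 with a 95% interval of 0.808 to 1.40. It did not pass the test (adjusted p = 0.877 by limma with Benjamini-Hochberg adjustment over all genes tested), and the 2-sided exact permutation test over libraries gave p = 0.722. Folds inside that interval remain compatible with these libraries, and the interval is not a limit of detection. The direction was not stable either: without WT replicate 4 the log2 change was -0.11, and with libraries scaled to equal sums it was -0.00255. Pooled over libraries, 7230 reads in null and 5716 in WT enterocytes gave a ratio of 0.959 after division by the library totals. Its 95% exact binomial interval of 0.926 to 0.993 covers counting error only and leaves out the spread among libraries.

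The spread of Btnl1 was larger in WT enterocytes than in null enterocytes, with a coefficient of variation of 12.5% over the 5 null libraries and 27.5% over the 4 WT libraries; this difference in spread was not tested. The gene had 1236 to 1810 reads per null library and 892 to 2262 reads per WT library, so counting error is small beside that spread. By its mean over the enterocyte libraries it stood at rank 197 of the 15144 genes with a read.

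In intestine, Btnl1 had 521.2, 518.6 and 527.3 normalised reads in Cd36 null libraries, against 514.8, 486.3, 493.6 and 519.2 in WT libraries. The groups overlapped, since null replicate 2 lay below WT replicate 4. Pooled over libraries, 1633 reads in null and 1988 in WT intestine gave a ratio of 1.02 after division by the library totals, with a 95% exact binomial interval of 0.951 to 1.09 that covers counting error only. Of 9314 genes in that comparison, 5.67% differed by more than 1.5 fold without overlap, and Btnl1 was not among them. Its rank by mean in intestine was 237.

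Btnl2 was the other member with ample reads, and it likewise showed no difference that passed the test. It had 210.6, 198.4, 104.9, 174.5 and 155.8 normalised reads in Mfge8 null enterocytes, against 191.7, 190.3, 130.9 and 138.0 in WT enterocytes. Null enterocytes held both the highest value (replicate 1) and the lowest (replicate 3). Means were 168.8 ± 41.6 (SD, n = 5) and 162.7 ± 32.8 (SD, n = 4). Its log2 change was 0.03 (SE 0.20), a fold of 1.02 with a 95% interval of 0.760 to 1.38 (adjusted p = 0.962 by limma, exact permutation p = 0.873). Its sign also turned under some settings, with -0.06 for libraries scaled to equal sums and -0.06, -0.05, -0.04 or -0.03 without WT replicate 3, null replicate 1, WT replicate 4 or null replicate 2. Of the 9432 genes tested 303 passed (3.21%), with 1.58% called higher and 1.63% lower, and neither of the 2 members tested was among them. Groups did not overlap for 6.42% of those genes, again without either member.

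Btnl2 in intestine had 43.4, 69.2 and 40.7 normalised reads in Cd36 null libraries, against 50.9, 46.5, 54.0 and 41.0 in WT libraries. The highest and the lowest of the 7 values were both from null libraries. The pooled ratio was 1.02 with a counting interval of 0.822 to 1.27, from 157 reads in null and 190 in WT intestine. Btnl2 stood at rank 1983 by its mean in enterocytes and 3469 in intestine.

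Btnl4 and Btnl6 were close to the limit of detection, and their values rest on single reads. Neither passed the filter on low values (at least 5 normalised reads in at least 4 enterocyte libraries), so neither was among the genes tested with limma in the main comparison. Exact permutation tests were made on their values as a measure free of distribution.

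Btnl4 had fewer reads in Mfge8 null than in WT enterocytes. It had 0, 0, 1, 2 and 1 reads in the null libraries, against 4, 6, 2 and 4 reads in the WT libraries. On the normalised scale these were 0, 0, 0.999, 2.14 and 0.820 in null and 4.68, 6.24, 1.57 and 3.97 in WT enterocytes, so that 4 of the 5 null libraries lay below all WT libraries. The fitted log2 difference of means was -1.56 with a pseudocount of 1, and the exact permutation test gave p = 0.0238. Pooled, 4 reads in null and 16 in WT enterocytes gave a ratio of 0.190 with a counting interval of 0.0461 to 0.588. That interval leaves out the spread among libraries, and enterocyte libraries of 1 genotype differed far beyond counting error over all genes. Of the 3770 genes with a mean of 1 to 10 normalised reads, 2.55% were lower in null enterocytes with an exact p no larger than that of Btnl4. With no filter on low values the gene did not pass across all genes (adjusted p = 0.132 by limma and 0.323 by edgeR), and the exact test missed 0.05 in 7 of the 9 settings that left out 1 library, with p of 0.0535 to 0.0714. In intestine the order of the groups was the opposite, with 0, 2 and 3 reads in Cd36 null libraries against 1, 0, 1 and 0 in WT libraries. That ratio of 3.09 had a counting interval of 0.506 to 32.5, too wide for a direction.

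Btnl6, the partner of Btnl1 on the cell surface, had 6, 8, 5, 5 and 6 reads in Mfge8 null enterocytes, against 3, 2, 6 and 4 reads in WT enterocytes. Normalised, these were 5.88, 8.77, 4.99, 5.35 and 4.92 in null and 3.51, 2.08, 4.70 and 3.97 in WT enterocytes. All 5 null libraries lay above all 4 WT libraries, though null replicate 5 and WT replicate 3 had 6 reads each and differed only in depth. Means were 5.98 ± 1.60 (SD, n = 5) and 3.57 ± 1.11 (SD, n = 4), a log2 difference of 0.62. The exact permutation test gave p = 0.00794, the smallest value that 5 against 4 libraries allow. Among the 3770 genes with a mean of 1 to 10 normalised reads, 1.59% were higher in null enterocytes without overlap and 0.849% had so low an exact p in that direction. Across all genes with no filter it did not pass (adjusted p = 0.645 by limma and 0.701 by edgeR), and pooled reads, 30 in null and 15 in WT enterocytes, gave a ratio of 1.52 with a counting interval of 0.791 to 3.03 that includes 1. Intestine libraries held 1 read each in Cd36 null, and 0, 2, 1 and 1 reads in WT, a ratio of 0.927 with an interval of 0.136 to 5.48.

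Btnl1 and Btnl2 supplied nearly all reads of the 4 genes, in shares whose group means were close but which varied from library to library. Btnl1 made up a mean of 89.0% of the summed reads in Mfge8 null enterocytes (84.8% to 92.5%), 88.5% in Mfge8 WT enterocytes (85.9% to 92.8%), 90.7% in Cd36 null intestine (87.7% to 92.2%) and 91.0% in Cd36 WT intestine (89.8% to 92.5%). Btnl2 made up 10.6% in Mfge8 null enterocytes (7.07% to 14.8%), 11.0% in Mfge8 WT enterocytes (6.85% to 13.4%), 8.84% in Cd36 null intestine (7.12% to 11.7%) and 8.70% in Cd36 WT intestine (7.31% to 9.83%). Btnl4 and Btnl6 together supplied the small remainder. This division counts tags and may differ from that of transcripts wherever an annotated 3′ end is missing.

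To set the experiments side by side, reads were expressed as RPM (reads per 1000000 reads of the library). Btnl1 had 723 ± 84.0 RPM in Mfge8 null enterocytes (SD, n = 5) and 738 ± 175 RPM in Mfge8 WT enterocytes (SD, n = 4), with means of 576 RPM in Cd36 null intestine and 567 RPM in Cd36 WT intestine. From high to low, the order was thus Mfge8 WT, Mfge8 null, Cd36 null and Cd36 WT. Libraries overlapped between the 2 enterocyte groups and between the 2 intestine groups, where genotype was not tested. The lowest enterocyte library, Mfge8 WT replicate 4 with 508 RPM, lay below all 7 intestine libraries. Btnl2 had 86.5 ± 24.1 RPM in Mfge8 null enterocytes (SD, n = 5) and 88.2 ± 17.6 RPM in Mfge8 WT enterocytes (SD, n = 4), with means of 56.4 RPM in Cd36 null intestine and 54.2 RPM in Cd36 WT intestine, in the same order. Its libraries overlapped between the experiments. Sample type, RNA kit and experiment cannot be told apart here, and the step between the tables was not tested.

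**Figure D1:**
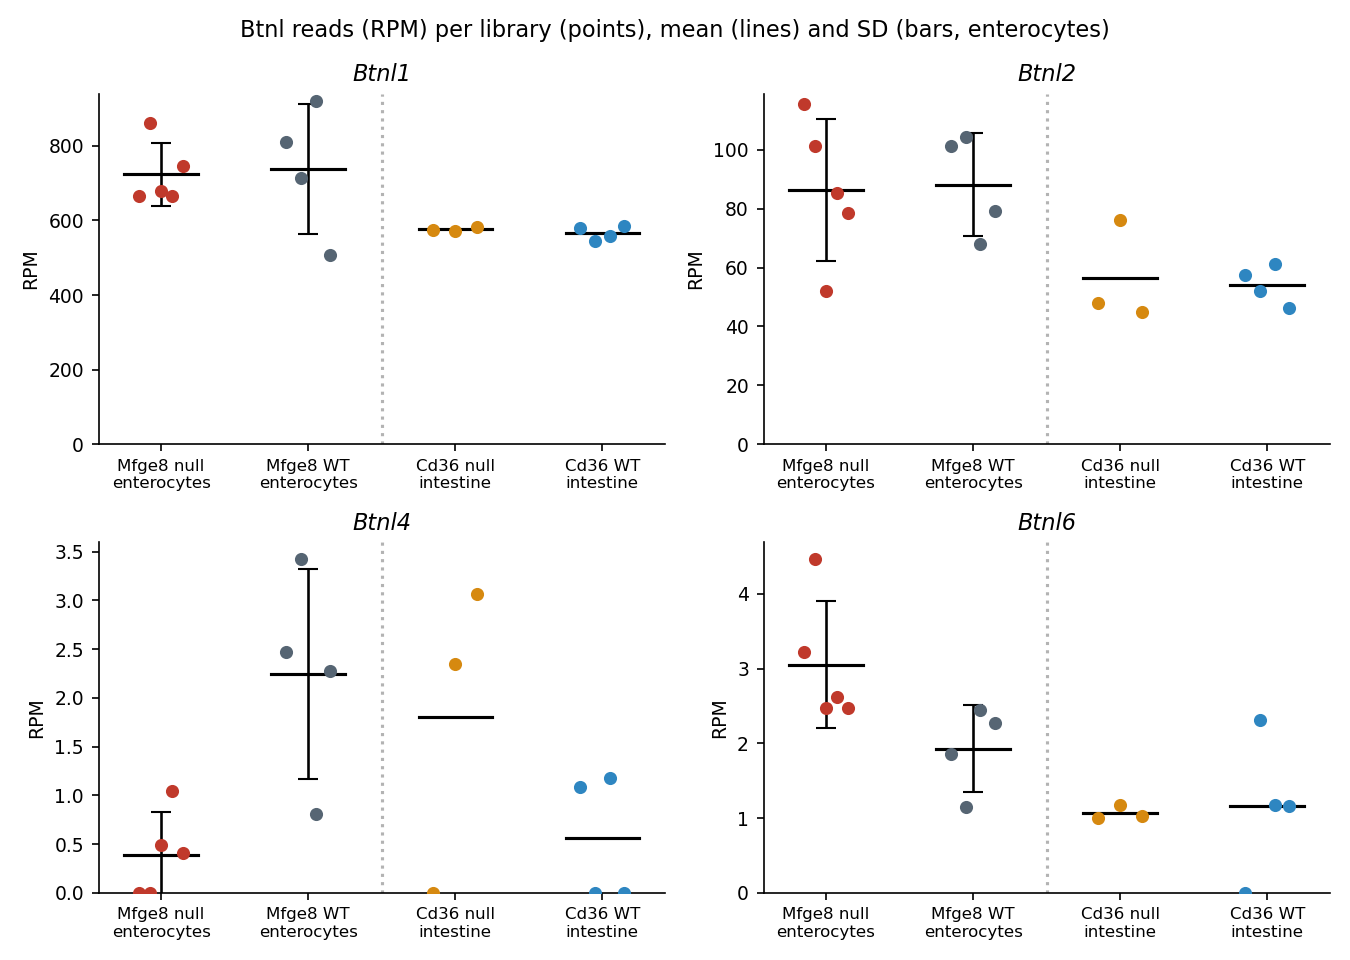
RPM (vertical axes, linear from 0) of Btnl1, Btnl2, Btnl4 and Btnl6 in each library of the 4 groups; points are libraries, horizontal lines are group means, and bars are SDs in the enterocyte groups, cut at 0. Null and WT points overlap for Btnl1 and Btnl2, whereas all 5 Mfge8 null points of Btnl6 lie above the 4 WT points and 4 of 5 null points of Btnl4 lie below them.

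The intestine libraries were rich in epithelial transcripts. The 10 epithelial markers, such as Epcam and Krt20, summed to 13135 to 13437 RPM in Cd36 null and 13192 to 13553 in Cd36 WT intestine, and to 10207 to 12315 in Mfge8 null and 8689 to 10778 in Mfge8 WT enterocytes. Single markers did not move alike. Krt8 averaged 2757 and 1881 normalised reads in Mfge8 null and WT enterocytes, against 75.1 and 80.6 in Cd36 null and WT intestine. Krt19 averaged 361 and 336 in those enterocytes, against 781 and 732 in those intestine groups. Smooth muscle markers were near 0 in the intestine libraries, with means of 1.27 normalised reads of Myh11 in null and 0 in WT intestine, and 0.302 and 0.260 of Des. Relative to the summed epithelial markers, Btnl1 amounted to 0.0597 to 0.0742 in Mfge8 null enterocytes, 0.0564 to 0.0933 in Mfge8 WT enterocytes, 0.0425 to 0.0441 in Cd36 null intestine and 0.0402 to 0.0441 in Cd36 WT intestine. The ranges of the enterocyte and the intestine libraries did not meet for Btnl1, but this step too runs along with sample type and experiment. For Btnl2 they did meet, with 0.00457 to 0.0113 in Mfge8 null and 0.00630 to 0.0117 in Mfge8 WT enterocytes. Intestine libraries had 0.00340 to 0.00567 in Cd36 null and 0.00349 to 0.00462 in Cd36 WT.

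Other genes of the family were nearly silent. Of the 18 butyrophilin, butyrophilin-like and Skint relatives in the tables, 16 were at 0 in all enterocyte libraries, and only Btnl5-ps passed the filter. Btnl5-ps had 31.3, 49.3, 29.0, 48.2 and 33.6 normalised reads in Mfge8 null enterocytes, against 30.4, 23.9, 32.1 and 33.8 in WT enterocytes. The groups overlapped (log2 change 0.32, adjusted p = 0.543 by limma). Although it is annotated as a pseudogene, it had several times as many reads as Btnl4 or Btnl6. In intestine it averaged 8.02 in Cd36 null and 7.87 in WT libraries.

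The flat values of Btnl1 and Btnl2 contrast with those of the class II genes beside them. MHC class II molecules present peptides to CD4 T cells, and gut epithelium can carry them. Within 300 kb of a member 31 other genes were in the table and 18 were tested. Of these 5 rose in Mfge8 null enterocytes and none fell, beside 1.58% higher and 1.63% lower of all 9432 genes tested. All 5 were class II genes, with log2 changes of 3.21 for H2-Aa, 3.06 for H2-DMb1, 2.67 for H2-Eb1, 2.53 for H2-DMa and 2.50 for H2-Ab1. The median log2 change of the 18 neighbours was 0.37, beside 0.00 for all genes tested. Neither the bromodomain gene Brd2 (log2 change 0.02) nor the peptide transporter gene Tap1 (0.54, adjusted p = 0.274 by limma), both in the same stretch, passed.

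**Figure D2:**
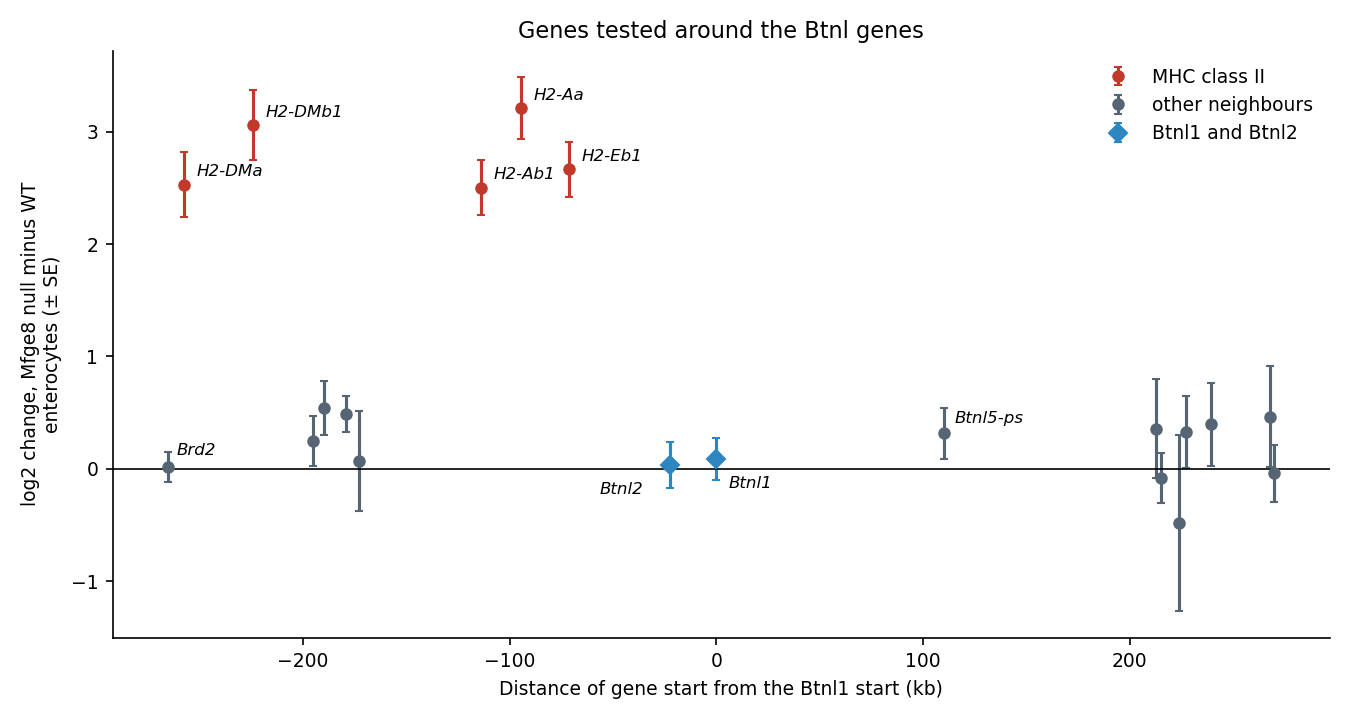
Log2 change between Mfge8 null and WT enterocytes (vertical axis, bars are standard errors) against the distance of each tested gene's start from the start of Btnl1 in kb, for Btnl1, Btnl2 and their 18 tested neighbours. Btnl1 and Btnl2 lie at 0.09 and 0.03, while the 5 class II genes lie between 2.50 and 3.21.

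H2-Eb1, the class II gene nearest to Btnl2 among those tested, had 559, 809, 666, 482 and 669 normalised reads in Mfge8 null enterocytes, against 56.1, 131, 83.1 and 151 in WT enterocytes. Every null library lay above every WT library (adjusted p = 1.62e-05 by limma). The log2 change of 2.67 stood beside 0.03 for Btnl2; the difference between the genes was not tested. In Cd36 null intestine H2-Eb1 averaged 409, against 526 in WT intestine, a log2 ratio of -0.36.

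Of the 11 class II genes and their regulators in the table, 7 were tested. All 7 rose in Mfge8 null enterocytes by limma, beside 1.58% of all genes tested, with a median log2 change of 2.67. They included Cd74, the invariant chain, and Ciita, the class II transactivator. Class II transcripts are also made by B cells, macrophages and dendritic cells. Of the 18 markers of non-epithelial cells 5 were tested, and 1 rose by limma and by edgeR, Jchain of plasma cells, at 294 ± 126 normalised reads in null (SD, n = 5) and 58.5 ± 43.1 in WT enterocytes (SD, n = 4; log2 change 2.55, adjusted p = 0.00331 by limma). Of all genes tested 1.58% were called higher by limma and 1.28% by edgeR. The 18 markers summed to 255 to 610 in null and 90.0 to 228 in WT enterocytes. By DESeq2, or by limma without WT replicate 4, 2 were called higher, with Ptprc, the CD45 antigen of leukocytes, as the other. DESeq2 called 2.28% of all genes higher. Ptprc averaged 79.9 in null and 45.1 in WT enterocytes (log2 change 0.84, adjusted p = 0.191 by limma). The B cell gene Cd79b averaged 8.42 in null and 6.98 in WT enterocytes, the myeloid gene Lyz2 15.5 in null and 17.4 in WT, and the endothelial gene Pecam1 12.2 in null and 11.2 in WT. Of the defining markers, Cd79a, Col1a1, Cdh5 and Myh11 were at 0 in all 9 libraries. In bulk libraries fewer cells of a type and less RNA per cell cannot be told apart, and the part of other cells in the class II rise was not tested.

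**Figure D3:**
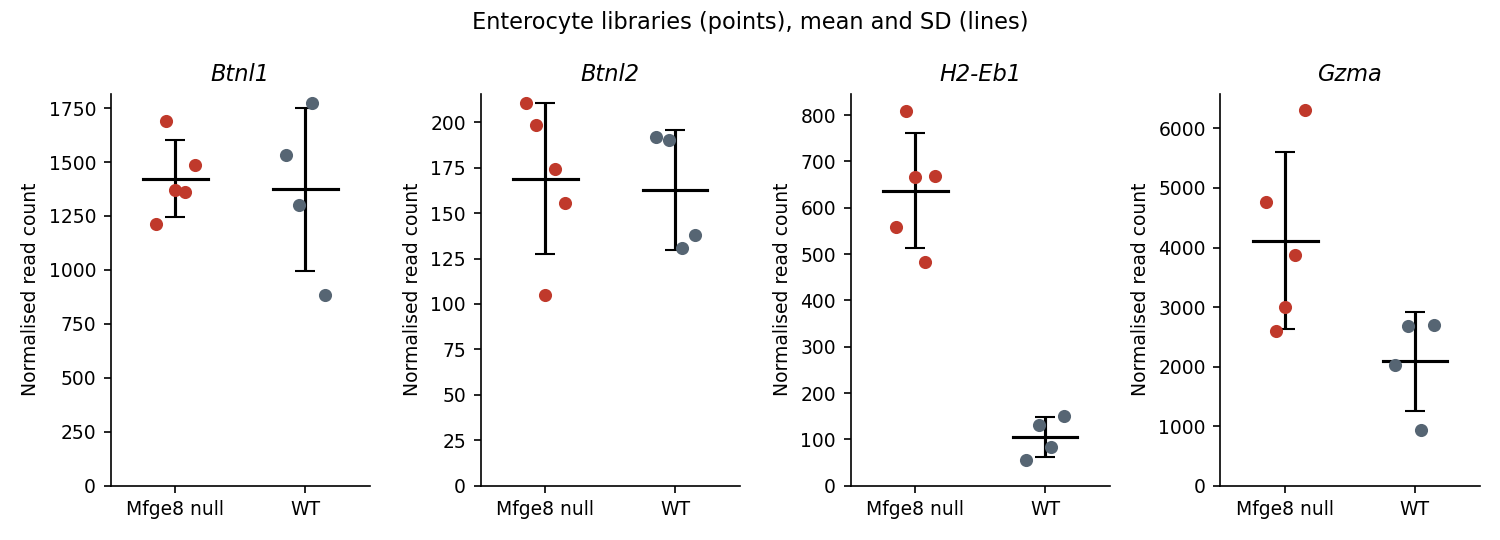
Normalised read counts (vertical axes, linear from 0) of Btnl1, Btnl2, H2-Eb1 and the granzyme gene Gzma in the 5 Mfge8 null and 4 WT enterocyte libraries; points are libraries, lines are means and bars are SDs. Btnl1 and Btnl2 overlap between genotypes, H2-Eb1 does not overlap, and Gzma overlaps, with a null mean of 4112 and a WT mean of 2086.

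Genes of intraepithelial lymphocytes, the cells on which Btnl1 and Btnl6 act, were examined in the same libraries. Of the 30 genes of that list 21 were in the table. The 8 T cell receptor genes of the list and Cd244a had no row, so the gamma delta cells themselves could not be told from other IELs. None of the 21 passed the test by limma, while 11 were higher at an unadjusted p under 0.05 and none lower, beside 8.52% higher and 7.36% lower of all 9432 genes. By edgeR 3 were called higher, beside 1.28% higher and 1.42% lower of all genes, and by DESeq2 5, beside 2.28% and 2.08%. By edgeR with no filter on low values 12 were called higher, beside 2.28% higher and 2.03% lower. The edgeR and DESeq2 fits left out WT replicate 4 and null replicate 3, so their counts differ from that of limma in libraries as well as in tool. Their median log2 change was 0.74, beside 0.00 for all genes tested. Gzma, a granzyme of cytotoxic lymphocytes, had 4112 ± 1488 normalised reads in Mfge8 null (SD, n = 5) and 2086 ± 828 in WT enterocytes (SD, n = 4; log2 change 1.02, adjusted p = 0.0843 by limma). Ccl5, a chemokine of the same cells, had 901 ± 425 in null and 456 ± 227 in WT enterocytes (log2 change 1.02, adjusted p = 0.121 by limma). Without WT replicate 4, the library with the lowest Btnl1, both passed, with an adjusted p of 0.0467 for Gzma and 0.0344 for Ccl5 by limma, and Gzma also passed without null replicate 2 (adjusted p = 0.0413 by limma). The number of list genes called higher by limma was then 5 without WT replicate 4, 4 without null replicate 2 and 1 without null replicate 3. The list summed to 4139 to 10029 in null and 1548 to 5020 in WT enterocytes.

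In intestine the same list lay on the other side. Of 20 genes that could be compared 1 was higher and 7 were lower in Cd36 null libraries by more than 1.5 fold without overlap, beside 2.52% higher and 3.15% lower of all 9314 genes. The median log2 ratio was -0.44, beside -0.00 for all genes. The list summed to 911 to 973 in null and 1154 to 1502 in WT intestine. Markers of non-epithelial cells moved with it: of 3 that could be compared 2 were lower in null intestine by the same rule and none higher, with a median log2 ratio of -0.94 and sums over the list of 122 to 125 in null and 148 to 214 in WT intestine. Ptprc averaged 55.4 in null and 107 in WT intestine. The part of other cells in the IEL values was not tested. The epithelial markers had a median of 0.06, with none past 1.5 fold, and Btnl1 had a ratio near 1 as above.

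Enterocyte transcription factors, among them the HNF4 and CDX factors, showed no call with the filter on low values. None of the 14 genes of that list passed by limma, edgeR or DESeq2. By edgeR with no filter 1 was called higher, beside 2.28% of all genes. At an unadjusted p under 0.05 by limma 3 were higher, beside 8.52% of all genes. The median log2 change of the list was 0.03. Klf4, a factor of differentiated epithelium, had the highest level, with 3184 ± 549 normalised reads in Mfge8 null (SD, n = 5) and 2201 ± 665 in WT enterocytes (SD, n = 4). Hnf4a had 533 ± 112 in null and 398 ± 76.3 in WT enterocytes (log2 change 0.42, adjusted p = 0.251 by limma). Of the 10 epithelial markers none passed by limma, edgeR or DESeq2, and the median log2 change was 0.25. At an unadjusted p under 0.05 by limma 2 were higher, beside the same 8.52% of all genes. Epcam, an adhesion molecule of epithelium, had 4174 ± 305 in null and 3474 ± 739 in WT enterocytes. Krt20, a keratin of mature villus cells, had 3837 ± 675 in null and 2820 ± 436 in WT enterocytes. In intestine none of the 14 factors was past 1.5 fold without overlap.

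Btnl genes are known as genes of villus rather than crypt. Markers along that axis and along the length of the gut were therefore examined, and the latter varied between these libraries. Of the 7 crypt and villus tip markers tested none passed by limma, and 1 was called lower by DESeq2, beside 2.08% of all genes. At an unadjusted p under 0.05 by limma 2 were higher and 1 lower, beside 8.52% and 7.36% of all genes. The higher ones were the crypt markers Mki67 (log2 change 0.99) and Top2a (0.72), and the lower one was the villus tip marker Apoa4 (-0.68). The other villus tip markers tested, Ada, Nt5e, Slc28a2 and Creb3l3, had changes of 0.46, 0.60, 0.57 and 0.02. A shift between crypt and villus cells was not tested. By edgeR with no filter 2 genes of the list were called higher and 1 lower, beside 2.28% and 2.03%. Of 6 proximal markers Onecut2 fell (log2 change -1.23, adjusted p = 0.0401 by limma), beside 1.63% lower of all genes. That call was lost in 9 of 20 alternatives, among them those without null replicate 1, 3 or 5 or without WT replicate 1, 2 or 3 (adjusted p up to 0.140 by limma). Of 6 ileal markers Slc51b, a bile acid transporter subunit, rose (0.81, adjusted p = 0.00615 by limma), beside 1.58% higher of all genes. A regional score, taken as the mean log2 value of the proximal markers less the mean of the ileal ones, was 0.52, 1.44, -0.37, 2.34 and -1.17 in Mfge8 null libraries, against 2.55, 1.22, 1.17 and 0.11 in WT libraries. Both genotypes therefore spread widely, and the null libraries reached lower scores. With the score as a covariate the log2 change of Btnl1 was 0.15 and that of Btnl2 was 0.15.

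Across the 9 enterocyte libraries no relation of Btnl1 or Btnl2 to this score passed the test, although 9 libraries leave wide room. For Btnl1 Pearson's r was 0.28 (exact permutation p = 0.472, adjusted over 4 genes 0.629) and Spearman's rho 0.27 (p = 0.493, exact, adjusted 0.658). Without the 2 libraries farthest from the median score r was 0.60. For Btnl2 r was 0.51 (exact permutation p = 0.163, adjusted 0.629) and rho 0.52 (p = 0.162, exact, adjusted 0.634), and r was 0.30 without those 2 libraries. Null replicate 3 and WT replicate 4 were low in both score and Btnl2. Null replicate 5, with the lowest score of all (-1.17), had a Btnl2 of 155.8 near the middle. WT replicate 3 was high in Btnl1 and low in Btnl2 (130.9) at a score near the middle (1.17).

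**Figure D4:**
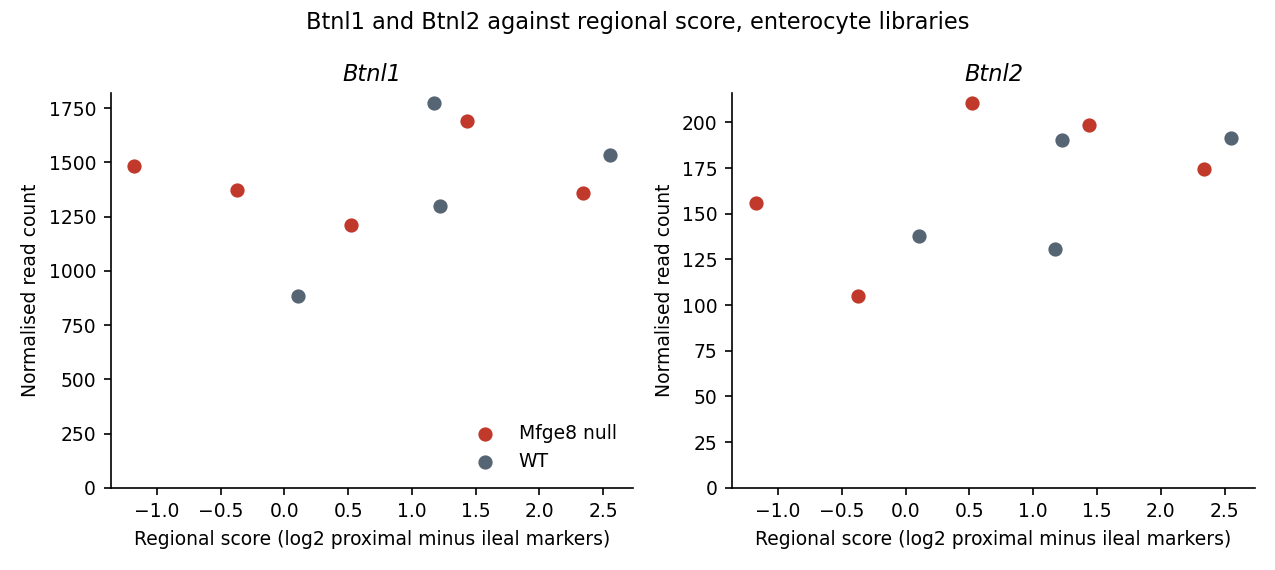
Normalised read counts of Btnl1 and Btnl2 (vertical axes, linear from 0) against the regional score (horizontal axis, log2 units, higher is more proximal) in the 5 Mfge8 null and 4 WT enterocyte libraries. Points of both genotypes mix along the score, with Pearson's r of 0.28 for Btnl1 and 0.51 for Btnl2.

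Btnl1 and Btnl2, though 7.63 kb apart on the same strand, showed no correlation that passed the test. Over the 9 enterocyte libraries Pearson's r was 0.08 (exact permutation p = 0.832, adjusted over 6 pairs 0.908) and Spearman's rho was -0.10 (p = 0.810, exact, adjusted 0.810). It was 0.02 without the 2 libraries farthest from the median of Btnl1, and 0.07 on values centred on the genotype mean. Null replicate 3 shows the difference, with the lowest Btnl2 of all 9 libraries and a Btnl1 in the middle. Btnl1 and Btnl6, which act as a pair, had an r of 0.30 (exact permutation p = 0.407, adjusted 0.874) and a rho of 0.12 (p = 0.776, exact, adjusted 0.810), with Btnl6 at 2 to 8 reads per library. Btnl1 and Btnl4 had an r of -0.31 and Btnl2 had an r of -0.08 with Btnl4 and of 0.05 with Btnl6, none with an adjusted p under 0.05 (0.874, 0.908 and 0.908, exact). Btnl4 and Btnl6, the near-identical pair, went in opposite directions, with an r of -0.88 (exact permutation p = 0.000303, adjusted 0.00182) and a rho of -0.88 (p = 0.00340, exact, adjusted 0.0204). It was -0.90 without the 2 libraries farthest from the median of Btnl4. The group means of both genes also lay apart, though neither gene passed across all genes with no filter. On values centred on the genotype mean r was -0.74, which was not tested. Within a genotype there are only 5 and 4 libraries, too few for an r of their own. Btnl4 had 0 to 6 reads and Btnl6 2 to 8 reads per library, and the part of reads that could be assigned to either gene was not tested.

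Genes with a pattern like the mean of Btnl1 and Btnl2 were sought among 9430 genes, by Pearson's r over the 9 enterocyte libraries with the mean of the z-scores of the 2 members. The 2 members did not vary together (r = 0.08), so that mean is a composite and not a pattern that they share. The 5 most alike were Slc37a3 (r = 0.93), Tsku (0.93), Fez2 (0.93), Ctsz (0.92) and Apip (0.92). On values centred on the genotype mean they were Tsku (0.98), Pdp2 (0.96), Fam109a (0.96), Vmp1 (0.95) and Sc5d (0.95), so Tsku stood in both sets. With so many genes and 9 points, values of this size are a description only. At the other end, and picked after its value was seen, the homeobox gene Cdx1 had an r of -0.86, at rank 9423 of 9430.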

How the data were processed

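RNA was measured by 3′ tag sequencing in 9 enterocyte and 7 small intestinal libraries. Per the labels' protocols, the kit gives forward 3′ tags and adds unique molecular identifiers (UMIs), and single-end reads were of 100 bases. The submitters' processing notes name HISAT2 2.1.0, Trimmomatic 0.38.1, DESeq2 2.11.40 and HTSeq 0.91, with the build mm10. Their order and settings, strand, UMI use and annotation are not given in the sources used here. If UMIs were not collapsed, reads are not independent molecules, and intervals cover counting error only. The authors deposited 1 normalised signal table per experiment, with values that are whole multiples of each library's smallest positive value, so reads were recovered. For enterocyte WT 4 and null 3 the step was too close to 1 to be checked in this way, and both were left out of edgeR and DESeq2; their reads, taken at that step, still enter the chi-square values, RPM, shares and pooled reads. Size factors were 0.855 to 1.28 in enterocytes and 0.939 to 1.105 in intestine.

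Groups and replicate numbers came from the labels. Enterocytes were tested with limma 3.58.1 (R 4.3.3; trend, 2-sided, Benjamini-Hochberg over all genes tested, threshold 0.05) on log2(value + 1), which understates the change of low genes, for genes that reached 5 in 4 or more libraries. Single values were tested by exact permutation of libraries. Intestine was described by ratios, with exact (Clopper-Pearson) binomial intervals at 95%. Alternatives were edgeR 4.0.16 and DESeq2 1.42.0 on recovered reads, other pseudocounts, filters and scalings, a replicate block, a regional covariate, and leaving out each library. edgeR without a filter was added after seeing the data. The procedures were tested on simulated data. Sequences and positions are from RefSeq on GRCm38.p6 and transcript models from GENCODE M21. Start regions were matched by symbol for all 4 members.

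The members and the gene lists were chosen with earlier results of these data known. Named genes were, per list, up to 4 that passed (otherwise the 2 with the highest mean), neighbours within 300 kb that passed, and the 5 most alike in pattern. Genes named outside this rule were chosen after their values were seen: Brd2, Tap1, Cdx1, Ptprc, the crypt and villus tip markers, and the cell markers given by their levels.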

Additional observations from a re-analysis of the deposited data

Results flagged for a closer look

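Btnl6 in Mfge8 null enterocytes held a library far from the others. Null replicate 2 had 8.77 normalised reads, from 8 reads, while the other 4 null libraries had 4.92 to 5.88. Its gap to the next library was 0.752 of the whole range of the group, above the limit for 5 samples. Among 12 groups examined, chance flags about 1 in 20. Over the settings that left out 1 library, this one included, the exact permutation p of Btnl6 was 0.0179 to 0.0357.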

How the results depend on the processing

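Neither Btnl1 nor Btnl2 passed the test under any of the 20 alternatives, and both changed sign under some. For Btnl1 the log2 change in enterocytes was -0.00255 for equal library sums in both the limma and the exact permutation test, -0.10 by edgeR, -0.10 by DESeq2 and -0.11 by edgeR with no filter; leaving out single libraries gave -0.11 to 0.23. For Btnl2 it was -0.0557 for equal sums in both tests, and -0.0617 to 0.20 when single libraries were left out. Equal sums moved the median of all genes by -0.09, so changes relative to the other genes were near those of the deposited scaling. The Btnl4 difference kept its sign (-2.01 to -0.64 over 13 alternatives), with -1.86 to -1.36 and exact permutation p of 0.0179 to 0.0714 when single libraries were left out. That of Btnl6 kept its sign in all 13 (0.36 to 0.74), with exact permutation p of 0.00794 to 0.0357, not adjusted over genes. Across all genes with no filter Btnl6 did not pass (adjusted p = 0.645 by limma and 0.701 by edgeR). Genes called over the whole table numbered 140 to 388 when single libraries were left out (140 without WT replicate 1, 173 without WT replicate 2, 185 without null replicate 3 and 199 without null replicate 5) and 640 by edgeR with no filter, against 303. In intestine the log2 ratios of the 4 genes moved within the spread of libraries over 11 alternatives: 0.02 to 0.07 for Btnl1, -0.19 to 0.22 for Btnl2, 0.27 to 1.20 for Btnl4 and -0.27 to 0.22 for Btnl6. The causes were not tested. Replicate numbers did not pair the enterocyte libraries, since deviations of same-numbered libraries correlated at -0.12, -0.07, 0.21 and 0.09; with the replicate block the log2 changes were 0.07 for Btnl1 and 0.05 for Btnl2 (adjusted p = 0.901 and 0.915 by limma). Depth limits Btnl4 and Btnl6, whose totals of 4 to 30 reads per enterocyte group give wide counting intervals.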
